A study of Mus musculus with 6 samples.

Results

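The 6 genes described here encode the enzymes that add a phosphate to the translation initiation factor eIF2α and the subunits that direct its removal. They are the 4 eIF2α kinases, Eif2ak1 (the heme-regulated inhibitor HRI), Eif2ak2 (PKR), Eif2ak3 (PERK) and Eif2ak4 (GCN2), and the regulatory subunits of the eIF2α phosphatase, Ppp1r15a (GADD34) and Ppp1r15b (CReP). They were chosen by name, not by their values, and all 6 were found among the 18743 genes listed in any library. The samples were cultured oligodendrocyte progenitor cells (OPCs), the dividing glial cells from which myelinating oligodendrocytes arise. They came from brains of wild type C57BL/6 mice labelled postnatal day 1, isolated from neonatal cortex with magnetic beads against CD140a (PDGFRα) and grown for 3 days. Then 3 samples were exposed for 12 h to hemin at 50 µM, a ferric heme chloride, and 3 to the vehicle (0.25% DMSO). No DMSO level is given for the hemin samples. The labels do not say whether each replicate was its own culture, which litters were used or whether pups were pooled, so a p-value here reflects how much the deposited samples vary among themselves, possibly for technical reasons alone.

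Phosphorylated eIF2α blocks its own exchange factor, eIF2B, so that most translation slows while a few mRNAs, that of the transcription factor ATF4 among them, are translated better. This is the integrated stress response. Each kinase senses a different stress. HRI is held inactive by heme and also responds to oxidative and mitochondrial stress, PKR binds double-stranded RNA, PERK senses unfolded protein in the endoplasmic reticulum (ER), and GCN2 senses uncharged tRNA and stalled ribosomes. PPP1R15B maintains a constant dephosphorylation of eIF2α, whereas PPP1R15A is induced during stress and closes a negative feedback loop. The mRNA levels below do not measure the activity of these enzymes, which is set mostly after translation.

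Libraries held 6339966 to 6523639 expected counts over annotated genes. Heme oxygenase Hmox1, which degrades heme, was 126-fold higher with hemin, and Pdgfra, the receptor used for isolation, was 4.93-fold lower (edgeR adjusted p = 0.000131 and 0.00222). Summed over 10 OPC markers, levels were 1220 to 1476 FPKM (fragments scaled for transcript length and library size) with vehicle and 393 to 598 with hemin. In bulk RNA, fewer cells of a type and less RNA per cell cannot be told apart. All 10 microglial markers were listed, and their sum lay at 9.24 to 16.8 FPKM with vehicle and at 22.5 to 23.3 with hemin. The 6 listed of 7 endothelial markers summed to 1.23 to 1.77 and 5.02 to 6.03 FPKM. Of 4 tested, 3 were called higher, among them Pecam1, with means of 0.153 and 2.34 FPKM. Cldn5 (means 0.0833 in both groups) and Cdh5 (0.0767 and 0.16) were too low to test, and Ly6c1 was at 0 in every library. Erythroid markers, which were included because HRI is best known from red cell precursors, summed to 1.19 to 3.03 and 0.41 to 5.18 FPKM, with Alas2 and Gata1 at 0 in every library. The sums of astrocyte (456 to 547 FPKM with vehicle and 379 to 513 with hemin), myelinating oligodendrocyte and pericyte markers overlapped between the groups. Single markers still differed. Of 7 astrocyte markers tested, 1 was called higher and 2 lower, and of 4 myelinating oligodendrocyte markers tested, 1 was called lower. Neuronal markers summed to 134 to 169 and 86.4 to 120 FPKM, and of 10 tested, 1 was called higher and 3 lower. The part of these shifts in the results below was not tested.

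In vehicle-treated cells the constitutive phosphatase subunit was the most abundant mRNA of the 6, and with hemin the inducible subunit took that place. On the FPKM scale, which allows genes to be compared per length, the order with vehicle was Ppp1r15b (18.0 to 20.1), Eif2ak3 (7.60 to 10.1), Eif2ak2 (6.37 to 7.12), Ppp1r15a (3.73 to 5.12) and Eif2ak4 (2.68 to 3.93). Neighbours in this order did not overlap, except Ppp1r15a and Eif2ak4. With hemin the order was Ppp1r15a (61.6 to 101), Ppp1r15b (23.9 to 35.4), Eif2ak3 (17.4 to 18.4), Eif2ak2 (5.07 to 6.02) and Eif2ak4 (3.44 to 6.38), of which the last pair overlapped. Eif2ak1 was given no place, because 3 libraries list it at 0. Where it was listed it stood at 5.79 FPKM in vehicle 2, above Ppp1r15a and Eif2ak4 there, and at 1.96 and 3.96 FPKM in hemin 2 and 3, the lowest of the 6 genes in both.

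**Figure D1:**
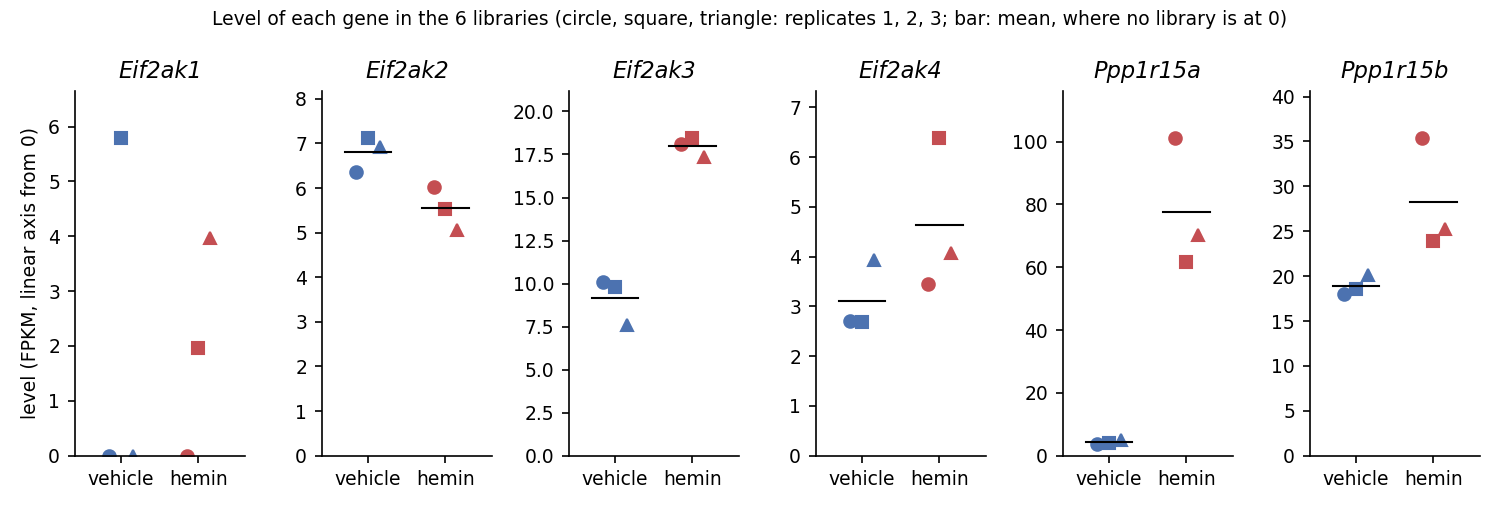
Level in FPKM (linear axes from 0, scaled per gene) of the 4 kinases and the 2 phosphatase subunits in each library; circles, squares and triangles are replicates 1, 2 and 3, blue is vehicle, red is hemin, and bars are means, drawn where no library of the group is at 0. Ppp1r15a, Ppp1r15b and Eif2ak3 lie higher in all 3 hemin libraries than in any vehicle library, and Eif2ak1 is at 0 in vehicle 1 and 3 and in hemin 1.

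Hemin was compared with vehicle in one edgeR quasi-likelihood fit over all 12779 genes that passed the count filter, all 6 among them, with Benjamini-Hochberg adjustment and a call at an adjusted p below 0.05. Of the 6, 3 were called higher and 0 lower by edgeR, DESeq2 likewise called 0 lower, and 0 were lower at an unadjusted p below 0.05. Over all genes tested, 31.9% were called, 16.2% higher and 15.7% lower. The FPKM values of the groups did not overlap for 4 of the 6, 3 higher and 1 lower. Among all genes tested this was so for 49.1%, with 21.5% higher and 27.5% lower. With so many genes changed, the number of called members is less informative than their sizes, which ranked 62 (Ppp1r15a), 1088 (Eif2ak3), 1997 (Ppp1r15b), 2089 (Eif2ak4), 5876 (Eif2ak1) and 8483 (Eif2ak2) from the highest of the 12779 log2 fold changes.

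**Figure D2:**
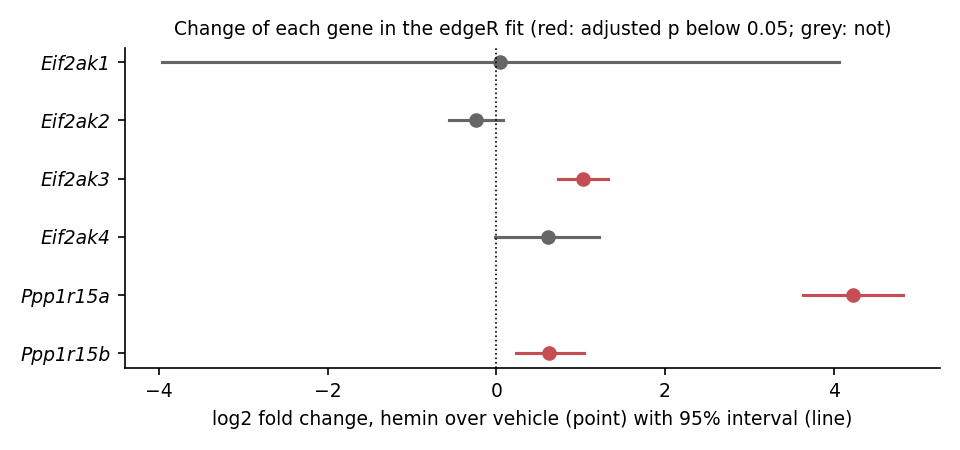
Log2 fold change of hemin over vehicle in the edgeR fit (points) with 95% intervals (lines); red marks an adjusted p below 0.05. Ppp1r15a stands at 4.23, Eif2ak3 at 1.03 and Ppp1r15b at 0.63, and the interval of Eif2ak1 runs from -3.96 to 4.06.

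Eif2ak1, the heme-regulated kinase, could not be compared between the groups in these files. Its single listed transcript had 0, 143.78 and 0 expected counts in vehicle replicates 1 to 3 and 0, 48.08 and 96.5 in hemin replicates 1 to 3, or 0, 5.79 and 0 FPKM against 0, 1.96 and 3.96 FPKM. Vehicle 2, hemin 2 and hemin 3 thus held the transcript, and the 3 other libraries, from both groups, did not list it. Whether such an exact 0, beside 143.78 counts in the same group, is an absent mRNA or an abundance estimate that failed was not tested. Of 10937 genes with at least 50 counts in some library, 181 (1.65%) had a 0 beside at least 50 counts within a group, and Eif2ak1 was the only one of the 6 among them. The fitted log2 fold change of Eif2ak1 was 0.05 ± 1.72 (SE, edgeR adjusted p = 0.985), with a 95% interval from -3.96 to 4.06 that covers large changes in either direction. Its sign turned with the library left out, from -0.93 without hemin replicate 3 to 8.61 without vehicle replicate 2. In that last fit both remaining vehicle libraries were at 0, so its size depends on the prior count and is no bound.

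Annotated exons of Eif2ak1 overlap those of Aimp2, a scaffold protein of the tRNA synthetase complex, by 487 bases and those of Ankrd61 by 172 bases, both on the opposite strand in GENCODE vM21. Such overlaps were not particular to Eif2ak1. Opposite-strand genes also overlap exons of Eif2ak3 (Gm43292, 485 bases), Ppp1r15b (Gm26616, 640 bases), Eif2ak2 (Gm26637, 174 bases) and Ppp1r15a (Tulp2, 12 bases), whereas Eif2ak4 had none. The sources used here do not say whether the protocol preserved strand, and without it reads from opposite strands cannot be told apart. Aimp2 had 217, 227 and 210 counts in the vehicle libraries, then 161, 231 and 231 in the hemin libraries, and Ankrd61 4 to 10 counts in any library. How reads in the shared bases were assigned, and its part in the zeros of Eif2ak1, was not tested.

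Eif2ak3, the ER stress kinase PERK, was the only kinase called higher. It measured 10.08, 9.82 and 7.60 FPKM in vehicle replicates 1 to 3 and 18.10, 18.45 and 17.35 FPKM in hemin replicates 1 to 3. The hemin libraries lay close together and well above every vehicle library. The rise was 2.04-fold, with means of 9.17 ± 1.36 and 18.0 ± 0.562 FPKM (SD, 3 samples each), a log2 fold change of 1.03 ± 0.13 (SE, edgeR adjusted p = 0.00161). It passed the threshold in all 12 alternatives, with a log2 fold change from 0.93 to 1.10 when 1 library was left out. Almost all of its counts belonged to the full transcript of 4519 bases. A short transcript of 965 bases reached 1.09 counts in vehicle 1 and 1.2 in hemin 2 and was 0 elsewhere.

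Eif2ak2, the double-stranded RNA kinase PKR, was slightly lower in the hemin libraries and did not pass the test. Levels were 6.37, 7.12 and 6.93 FPKM with vehicle and 6.02, 5.54 and 5.07 FPKM with hemin. Each hemin library lay below each vehicle library, which was so for 27.5% of all genes tested. The log2 fold change was -0.24 ± 0.14 (SE, edgeR adjusted p = 0.217), with a 95% interval from -0.56 to 0.08, and did not pass in any of the 12 alternatives.

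Eif2ak4, the amino acid sensor GCN2, did not pass the test either. It stood at 2.71, 2.68 and 3.93 FPKM with vehicle and 3.44, 6.38 and 4.08 FPKM with hemin. Vehicle 3 lay above hemin 1, so the groups overlapped, and hemin 2 was far above the rest. The log2 fold change was 0.61 ± 0.26 (SE, edgeR adjusted p = 0.118), with a 95% interval from -0.01 to 1.22, and was 0.32 without hemin replicate 2 (edgeR adjusted p = 0.351). Part of this spread lay in the estimated level of a transcript listed in some libraries only. This shorter transcript, of 4916 bases, reached 0.68 FPKM in vehicle 3, 1.74 in hemin 2 and 1.35 in hemin 3 and was 0 in the others. How reads were divided between it and the longer transcript was not tested. The longer one, of 5220 bases, alone measured 2.71, 2.68 and 3.25 FPKM in the vehicle libraries, and 3.44, 4.64 and 2.73 FPKM after hemin, so the groups overlapped for it too.

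Eif2ak3 made up more of the summed kinase mRNA with hemin, and Eif2ak2 less. Among the 3 kinases listed in every library, chosen after Eif2ak1 was seen to be at 0 in some, Eif2ak3 made up 52.6%, 50.1% and 41.2% of the FPKM with vehicle and 65.7%, 60.8% and 65.5% with hemin. Eif2ak2 made up 33.2%, 36.3% and 37.5% with vehicle and 21.8%, 18.2% and 19.1% with hemin. The groups did not overlap for either share, and the differences of 16 and -16 percentage points each had an exact two-sided permutation p of 0.10, the smallest that 3 against 3 samples allow. Eif2ak4 kept a similar mean share, 16.4% ± 4.27 with vehicle and 16.3% ± 4.33 with hemin (SD, n = 3 per group, exact permutation p = 1.00). Shares of a library add up to its whole, so the rise of Eif2ak3 and the fall of Eif2ak2 are not independent results. The level of Eif2ak2 itself was not called lower (edgeR adjusted p = 0.217). With Eif2ak1 included, Eif2ak3 went from 44.1% ± 7.44 to 59.9% ± 5.0 and Eif2ak2 went from 32.9% ± 4.77 to 18.5% ± 2.87 (exact permutation p = 0.10 for each, 0.15 adjusted over 6 such comparisons). The sum of the 3 kinases was 19.2, 19.6 and 18.5 FPKM with vehicle and 27.6, 30.4 and 26.5 FPKM with hemin.

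Ppp1r15a, the inducible phosphatase subunit, had the greatest change of the 6. It measured 3.73, 4.10 and 5.12 FPKM in vehicle replicates 1 to 3 and 101.10, 61.63 and 70.40 FPKM in hemin replicates 1 to 3. Every hemin library was more than 10 times any vehicle library, and hemin 1 was the highest. The rise was 18.7-fold, with means of 4.32 ± 0.720 and 77.7 ± 20.7 FPKM (SD, 3 samples each), a log2 fold change of 4.23 ± 0.25 (SE, edgeR adjusted p = 0.000191). It passed in all 12 alternatives and stayed between 3.95 and 4.39 when 1 library was left out.

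Ppp1r15b, the constitutive subunit, rose far less. Its levels were 18.03, 18.60 and 20.07 FPKM with vehicle and 35.37, 23.95 and 25.30 FPKM with hemin. The groups did not overlap, but hemin 1 stood apart from hemin 2 and 3, which were only slightly above vehicle 3. The rise was 1.55-fold, with means of 18.9 ± 1.05 and 28.2 ± 6.24 FPKM (SD, 3 samples each), a log2 fold change of 0.63 ± 0.17 (SE, edgeR adjusted p = 0.0284). Leaving out vehicle replicate 1 ended the call (edgeR adjusted p = 0.0825), as did leaving out vehicle replicate 2 (0.0778). Without hemin replicate 1 the log2 fold change was 0.40 and the call held (edgeR adjusted p = 0.0113).

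The balance between these subunits turned over. The FPKM ratio of Ppp1r15a to Ppp1r15b was 0.207, 0.220 and 0.255 with vehicle and 2.86, 2.57 and 2.78 with hemin. The inducible subunit was thus the minor mRNA of the pair in each vehicle library and the major one in each hemin library. The difference of 3.59 in the mean log2 ratio, 12.1-fold, was far beyond the spread within groups (SD 0.16 with vehicle and 0.08 with hemin, n = 3 each), with an exact permutation p of 0.10, the smallest possible, and 0.15 adjusted over 6 comparisons. Hemin 1, which had the highest level of both subunits, did not stand apart in their ratio. The summed phosphatase subunits stood to the summed 4 kinases as 1.14, 0.893 and 1.36 with vehicle and as 4.95, 2.65 and 3.14 with hemin. Without Eif2ak1 among the kinases the ratios were 1.14, 1.16 and 1.36 with vehicle and 4.95, 2.82 and 3.61 with hemin, 3.04-fold higher on average. The exact permutation p was 0.10 for both forms. From gene-summed counts, which are not scaled for length, the log2 difference for the 4 kinases was 0.96 in place of 1.63.

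**Figure D3:**
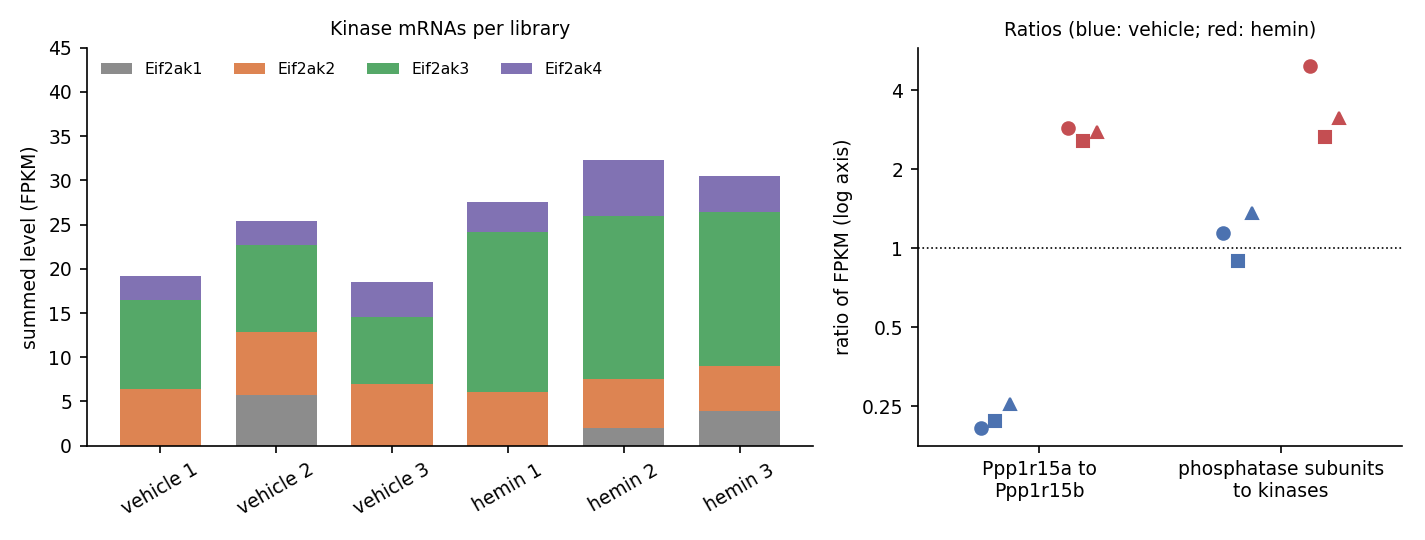
Left, stacked FPKM of the 4 kinases in each library; right, FPKM ratios (log axis) of Ppp1r15a to Ppp1r15b and of both phosphatase subunits to the 4 kinases, with vehicle in blue and hemin in red and replicates 1, 2 and 3 as circles, squares and triangles. The Eif2ak3 segment is larger in the hemin libraries, Eif2ak1 is seen in 3 libraries only, and the Ppp1r15a to Ppp1r15b ratio lies below 1 in all vehicle libraries and above 1 in all hemin libraries.

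Promoter windows from RefSeq (build GRCm38.p6, 250 bases before to 50 after the annotated start) matched 5 of the 6 genes; Ppp1r15b had no entry. The bases before the start of the 2 genes that rose most are shown with the motif matches in capitals, and for Eif2ak2 a site just after its start. In Ppp1r15a the capitals are, from left to right, a match to an interferon-stimulated response element and one to a full cAMP response element, the type of site bound by ATF and CREB factors. In Eif2ak3 they are CCAAT boxes on either strand, and in Eif2ak2 an interferon-stimulated response element.
Ppp1r15a, chr7:45526269-45526518, minus strand: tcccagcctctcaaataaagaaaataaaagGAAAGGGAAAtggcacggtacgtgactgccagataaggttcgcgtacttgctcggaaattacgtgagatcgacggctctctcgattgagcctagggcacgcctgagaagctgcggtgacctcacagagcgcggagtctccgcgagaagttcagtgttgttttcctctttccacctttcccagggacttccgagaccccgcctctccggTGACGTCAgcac
Eif2ak3, chr6:70844265-70844514, plus strand: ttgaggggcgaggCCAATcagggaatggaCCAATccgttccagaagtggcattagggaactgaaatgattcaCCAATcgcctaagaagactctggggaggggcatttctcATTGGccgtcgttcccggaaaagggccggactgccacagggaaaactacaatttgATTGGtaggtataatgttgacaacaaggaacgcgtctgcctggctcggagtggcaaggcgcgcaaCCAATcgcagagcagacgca
Eif2ak2, chr17:78882535-78882564, minus strand: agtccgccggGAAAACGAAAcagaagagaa

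Both strands of the 300-base windows were searched for 8 motifs, and the shares that follow are of all 32851 windows. The full cAMP response element (TGACGTCA) lay at -12 to -5 from the annotated Ppp1r15a start and was present in 1.79% of windows. A TATA box (TATAAA, 13.6% of windows) followed at 16 to 21 after that start, and an antioxidant response element (TGACNNNGC, 12.4%) on the opposite strand at 4 to 12. The interferon-stimulated response element (GAAA, any 2 bases, GAAA; 3.44%) lay at -220 to -211 in Ppp1r15a and at 19 to 28 in Eif2ak2. Eif2ak3 held 6 matches to CCAAT, a count reached by 0.0791% of windows, whereas at least 1 was present in 37.4%. Eif2ak1 held 1 such match, at -88 to -84. Eif2ak4 had windows at different annotated starts, and neither matched any of the 8. None of the 5 genes matched the composite element of C/EBP and ATF factors (TGATGNAA, 3.97%), the ER stress response element (CCAAT, any 9 bases, CCACG; 0.119%) or the heat shock element (GAA, TTC and GAA with any 2 bases between; 0.603%). The CCAAT box forms part of the ER stress response element, so these 2 searches overlap. A match describes letters in the window only.

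Proteins known to hold these enzymes in check or to activate them were called about as often as genes in general. Of 22 such genes and catalytic subunits of protein phosphatase 1 (PP1), 5 rose, 2 fell and 15 did not pass, so that 31.8% were called beside 31.9% of all genes tested, with a median log2 fold change of 0.06 beside 0.00 for all genes tested. By direction, 22.7% of the list were called higher and 9.09% lower, beside 16.2% and 15.7% of all genes tested. This and the other lists were written with earlier results of these data known. Without hemin replicate 1, 9 rose and 3 fell, and with libraries scaled by their totals alone the median was -0.04. Of 6 proteins around HRI, 3 rose, all of them chaperones, and 3 did not pass. Hsp90aa1 went from 343.36, 323.41 and 354.12 FPKM with vehicle to 1405.59, 1217.26 and 864.58 with hemin, 3.56-fold higher, and Hspa8 and Hsp90ab1 were 2.47-fold and 1.84-fold higher (edgeR adjusted p = 0.0009, 0.000446 and 0.0014). Cdc37, the co-chaperone that brings kinases to HSP90, stood at 33.84, 34.57 and 35.92 FPKM in the vehicle libraries, and at 30.79, 43.30 and 46.33 FPKM after hemin, with hemin 1 below and hemin 2 and 3 above every vehicle library (edgeR adjusted p = 0.204). It was called higher without hemin replicate 1 (edgeR adjusted p = 0.0102). Dele1, the mitochondrial messenger that activates HRI, stood at 19.01, 18.87 and 15.60 FPKM in the vehicle libraries, and at 16.57, 18.96 and 14.38 FPKM after hemin (edgeR adjusted p = 0.847). Its protease Oma1 stood at 3.71 to 4.61 and 2.78 to 4.31 FPKM (edgeR adjusted p = 0.399).

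Impact, which binds GCN1 and thereby restrains GCN2, was the regulator with the greatest rise. It had 12.39, 13.51 and 15.98 FPKM with vehicle and 75.29, 58.09 and 55.45 with hemin. The groups were far apart, with a 4.69-fold difference (log2 fold change 2.23 ± 0.17, SE, edgeR adjusted p = 0.000332). Hspa5 (BiP), the ER chaperone that keeps PERK inactive until unfolded protein draws it away, rose 2.48-fold, from 157.34 to 161.70 FPKM in the vehicle libraries to 504.53, 351.75 and 281.86 with hemin (edgeR adjusted p = 0.00442). Dnajc3 (p58IPK), an inhibitor of PKR and PERK, was 16.38 to 16.77 FPKM with vehicle and 12.12 to 14.11 with hemin (edgeR adjusted p = 0.0718). It passed as lower with library totals alone, in limma and without hemin replicate 1 (adjusted p = 0.0197, 0.0388 and 0.0134).

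Around PKR, Tarbp2, a double-stranded RNA binding protein that inhibits it, fell from 6.15, 7.19 and 8.31 FPKM to 3.10, 5.30 and 3.98 FPKM (edgeR adjusted p = 0.047). That call was lost without filtering and without vehicle replicate 1, 2 or 3 or hemin replicate 1 or 3 (edgeR adjusted p = 0.0529 to 0.151). Adar, the RNA editing enzyme that removes PKR ligands, stood at 8.10 to 12.48 FPKM in the hemin libraries, a range that spans its vehicle values (edgeR adjusted p = 0.943). Of the PP1 catalytic subunits with which PPP1R15A and PPP1R15B work, Ppp1cc fell 1.38-fold, from 93.91, 103.44 and 86.05 FPKM to 63.55, 65.43 and 68.82 FPKM (edgeR adjusted p = 0.0078). Ppp1ca stood at 150.57 to 161.59 and 134.71 to 206.48 FPKM (edgeR adjusted p = 0.213) and was called higher without hemin replicate 1 (0.00713). Ppp1cb stood at 68.06 to 76.54 and 67.02 to 74.38 FPKM (edgeR adjusted p = 0.907).

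The substrate itself rose, and its partners as a list were called about as often as genes in general when both directions are counted. Of 17 subunits of eIF2 and eIF2B and factors that load or control the initiator tRNA, 5 rose and 1 fell, so that 35.3% were called beside 31.9% of all genes tested, with a median log2 fold change of 0.11. By direction, 29.4% of this list were called higher and 5.88% lower, beside 16.2% and 15.7% of all genes tested. Eif2s1, which encodes eIF2α, stood at 37.40, 40.95 and 37.63 FPKM with vehicle and 55.95, 56.42 and 50.46 with hemin. No vehicle library reached the lowest hemin library, and the rise was 1.46-fold (edgeR adjusted p = 0.00575). Eif2s2, the β subunit, rose 2.33-fold and Eif5, the GTPase activator of eIF2, 1.74-fold (edgeR adjusted p = 0.00147 and 0.00457). Bzw2, a mimic of eIF5, fell 1.35-fold (edgeR adjusted p = 0.0103), a call lost without vehicle replicate 1 or 2 (0.0542 and 0.0638). The eIF2B subunits Eif2b4 and Eif2b3, the latter named after its values were seen, rose 1.34-fold and 1.43-fold (edgeR adjusted p = 0.0374 and 0.0452). These calls were lost in 10 and 8 of 12 alternatives, among them those without vehicle replicate 1 (0.131 and 0.142), vehicle replicate 2 (0.113 and 0.134), hemin replicate 2 (0.119 and 0.121) and hemin replicate 3 (0.0862 and 0.0636), and for Eif2b4 without vehicle replicate 3 (0.0674) and for Eif2b3 without hemin replicate 1 (0.0716). Without vehicle replicate 1 or 2, the list counted 3 higher and 0 lower.

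The unfolded protein response has sensors besides PERK, and they and their effectors were examined beside it. Of 7 genes, 3 rose and 1 fell (42.9% and 14.3%, beside 16.2% and 15.7% of all genes tested), with a median log2 fold change of 0.57. Ern1 (IRE1α) was 2.25, 2.18 and 2.19 FPKM with vehicle and 3.38, 3.36 and 3.68 with hemin, 1.63-fold higher, and Atf6 was 5.95, 6.84 and 6.98 FPKM against 25.48, 16.15 and 11.19, 2.79-fold higher (edgeR adjusted p = 0.0105 and 0.0089). The mRNAs of Eif2ak3, Ern1 and Atf6 were thus higher in every hemin library than in any vehicle library. The same held for 21.5% of all genes tested. The paralogue Atf6b stood at 16.33, 17.09 and 18.33 FPKM in the vehicle libraries, and at 15.88, 20.81 and 21.60 FPKM after hemin, with hemin 1 below every vehicle library (edgeR adjusted p = 0.242). Xbp1, the transcription factor whose mRNA IRE1α splices, rose 2.55-fold (edgeR adjusted p = 0.00207). Mbtps1, the protease that releases ATF6, fell 1.46-fold from 27.41, 29.34 and 29.66 FPKM to 19.62, 17.37 and 20.17 (edgeR adjusted p = 0.00624). The second such protease, Mbtps2, stood at 8.56 to 9.51 FPKM with vehicle and 7.88 to 12.04 with hemin (edgeR adjusted p = 0.638). Creb3l2, an ER-anchored transcription factor, stood at 5.13 to 7.62 and 6.81 to 10.07 FPKM (edgeR adjusted p = 0.0907), and was called higher without hemin replicate 3 (0.0433).

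Most genes known to lie downstream of phosphorylated eIF2α rose. Of 34 such transcription factors and targets, 33 were tested, 27 rose and 0 fell (edgeR, and 28 and 0 by DESeq2, with 0 lower at an unadjusted p below 0.05), a share of 81.8% beside 16.2% called higher over all genes, with a median log2 fold change of 1.63. Fgf21, a secreted metabolic hormone, did not pass the count filter, being listed at 0 in the vehicle libraries and at 2.26, 1.08 and 0.95 FPKM with hemin. Atf4, whose translation the pathway controls, had 57.82, 54.47 and 83.07 FPKM with vehicle and 194.68, 165.85 and 221.94 with hemin, 3.09-fold higher (edgeR adjusted p = 0.0013). Ddit3 (CHOP), a factor that acts on the Ppp1r15a gene, went from 6.25, 9.12 and 6.15 to 125.48, 90.88 and 94.29 FPKM. The rise was 15.3-fold (edgeR adjusted p = 0.000191). Gdf15, Atf3 and Slc7a11 had edgeR adjusted p-values of 0.000162 to 0.000199.

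**Figure D4:**
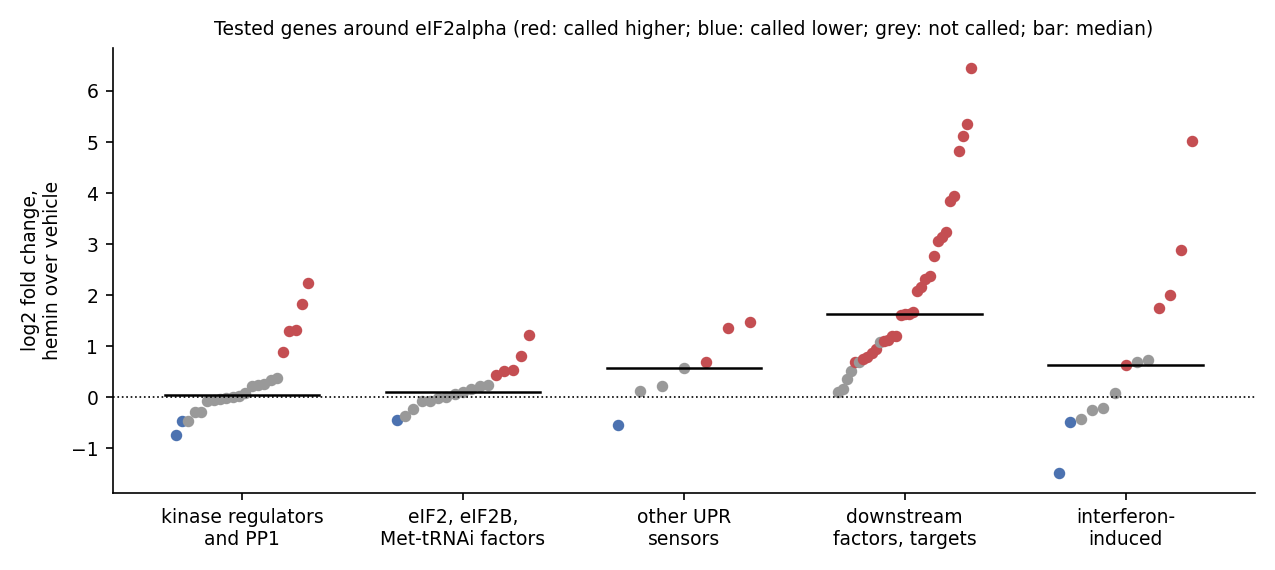
Log2 fold change of hemin over vehicle for the tested genes of each list around eIF2α; red points were called higher, blue points lower and grey points were not called, and bars are medians. The downstream list has 27 of 33 genes called higher and a median of 1.63, and the medians of the regulators and of the eIF2 and eIF2B list lie at 0.06 and 0.11.

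The hemin libraries were not alike in the size of this response. Of the 27 downstream genes that rose, 25 were highest in hemin 1, 2 in hemin 3 and 0 in hemin 2. Among all 2072 genes called higher, hemin 1 was the highest library for 40.3%. The median level of the 27 genes over the vehicle mean was 4.79-fold in hemin 1, 3.64-fold in hemin 2 and 3.41-fold in hemin 3, whereas over all genes called higher it was 1.85-fold, 1.78-fold and 1.79-fold. Ppp1r15a and Ppp1r15b were likewise highest in hemin 1, while Eif2ak3 varied little, from 17.35 to 18.45 FPKM. Without hemin replicate 1, the list's median log2 fold change was 1.26, and 27 genes rose.

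**Figure D5:**
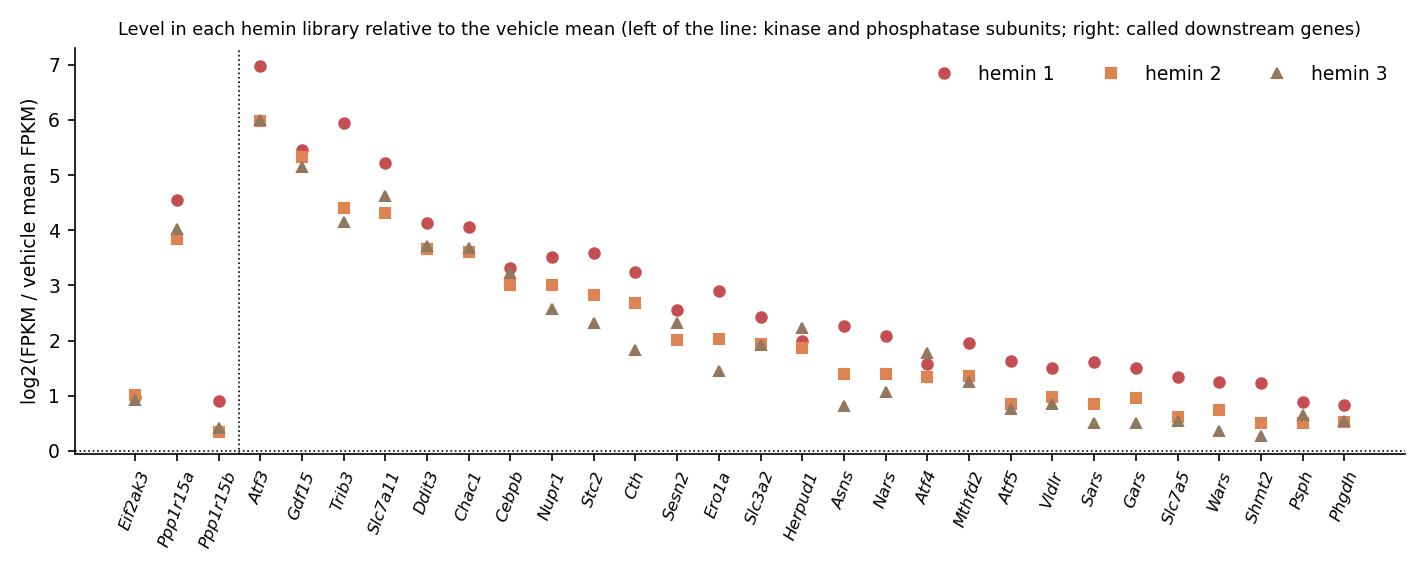
Level of Eif2ak3, Ppp1r15a and Ppp1r15b (left of the dotted line) and of the 27 called downstream genes (right) in each hemin library, as log2 of FPKM over the vehicle mean. Hemin 1 (circles) is the highest of the 3 libraries for 25 of the 27 downstream genes and for both phosphatase subunits.

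Because Eif2ak2 is itself induced by interferon, interferon-induced genes were examined beside it. Of 22 genes, 13 were tested, 5 rose and 2 fell (38.5% and 15.4%, beside 16.2% and 15.7% of all genes tested), with a median log2 fold change of 0.64 (0.23 without vehicle replicate 2, 0.31 without vehicle replicate 3 and 0.32 in limma on log2(FPKM + 1)). Ifit2, an inhibitor of viral translation, fell from 8.22, 7.91 and 7.87 FPKM to 3.07, 2.19 and 3.01 FPKM (edgeR adjusted p = 0.00121). Cxcl10, a chemokine, went from 0.56, 0.55 and 0.44 FPKM to 13.44, 18.68 and 17.55 FPKM (edgeR adjusted p = 0.000162). Usp18, Mx2 and Rsad2 rose to 0.78 to 2.54 FPKM (edgeR adjusted p = 0.00195 to 0.00351). The RNA sensor Ddx58, named after its values were seen, rose 1.56-fold (edgeR adjusted p = 0.0294), a call lost in 10 of 12 alternatives, among them those without vehicle replicate 1, 2 or 3 or hemin replicate 2 or 3 (0.0588 to 0.0896). The list thus held members in both directions, with Eif2ak2 between them, and of the 7 microglial markers tested, whose sum is given above, 1 was called higher.

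The genes most like each member were found by the root mean square difference of log2(CPM + 1), centred on the vehicle mean, over the 6 libraries, among 7687 genes with a mean of at least 5 FPKM. For Ppp1r15a they were Srxn1, at 0.32, with 14.61, 11.99 and 30.38 FPKM against 353.19, 236.74 and 330.90, and Ddit3, at 0.35. For Eif2ak3 they were Tbce and Atf7ip, both at 0.07, which rose 2.07-fold and 1.96-fold (edgeR adjusted p = 0.0013 and 0.00153). Ppp1r15b was closest to Eif1a (0.04) and Tmem248 (0.07), both of which were also highest in hemin 1. Eif2ak2 was closest to Fkbp15 (0.03) and Gpn1 (0.04), and Eif2ak4 to Zfp280c (0.10) and Osgepl1 (0.12). For Eif2ak1, Nup98 stood at 1.54, a greater difference than for any gene named for the other members.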

How the data were processed

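RNA was profiled in 3 vehicle and 3 hemin samples of cultured mouse OPCs, grouped by their titles. Per the labels' protocols, libraries followed Illumina's standard procedure after mRNA enrichment and PCR. The submitters' processing notes list Bowtie 0.12.2 and RSEM, and both mm8 and mm9 without saying which was used for what. The sources used here do not name an annotation, filters or strandedness. Per the file headers, the deposited tables hold expected counts per transcript, the authors' estimates that need not be whole, and FPKM, which the authors scaled for length and library size. Tables of unannotated features were not used.

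Transcripts were summed to 18743 genes by Entrez identifier, a missing gene being 0, and RefSeq's genes of GRCm38.p6, used for names only, gave 18711 of them a symbol. The promoter coordinates are those of RefSeq. Expected counts were rounded. In R 4.3.3, edgeR 4.0.16 (filterByExpr, TMM, glmQLFit, glmQLFTest, two-sided, Benjamini-Hochberg) tested 12779 genes without covariates. A standard error is the log2 fold change over the square root of F, and 95% intervals use the test's degrees of freedom. Ratios and shares were tested with exact permutation over samples. Functions were tested on simulated data. With 3 samples a group, precision is limited by their number, and counts cover reads that PCR may have duplicated.

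Alternatives were library totals, DESeq2 1.42.0, no count filter, limma 3.58.1 with a trend on log2(FPKM + 1) and log2(FPKM + 0.1), the replicate number as a block, and leaving out each library. Ratios were also computed from the top transcript, from counts and with 0.1 FPKM added. Members, lists and tests were chosen with earlier results of these data known. All members are named. From lists of up to 7 any gene may be named, from longer lists the called genes with the smallest p (4 with and 2 against the majority), Atf4, Ddit3, Eif2s1 and Adar, and the 2 genes most like each member. Some genes that this rule names are not reported here.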

Additional observations from a re-analysis of the deposited data

How the results depend on the processing

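Eif2ak3 and Ppp1r15a kept their call in all 12 alternatives, and Eif2ak2 and Eif2ak4 stayed uncalled in all 12. Ppp1r15b lost its call without vehicle replicate 1 or 2 and otherwise kept it, over a log2 range of 0.40 to 0.75 with 1 library left out. Eif2ak1 reversed to -0.02 with library totals alone and ranged from -0.93 to 8.61 with 1 library left out (-0.51 without vehicle replicate 1 and likewise without vehicle replicate 3, -0.93 without hemin replicate 3). Its share of kinase FPKM changed by -1.24 percentage points and reversed to 6.35 without vehicle replicate 2 and 1.94 without hemin replicate 1, with a range from -5.04 to 6.35. The share of Eif2ak4 changed by -0.123 points and reversed to 2.86 without vehicle replicate 3, 1.24 without hemin replicate 1 and 0.781 without hemin replicate 3, with a range from -2.51 to 2.86. The ratios and the shares of Eif2ak2 and Eif2ak3 kept their direction in every alternative run. The cause of these shifts was not tested.

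The count of called genes, 4077, ranged from 2551 to 4530 with 1 library left out (2597 without vehicle replicate 1 and 2551 without vehicle replicate 2). Calls among regulators went from 7 to between 6 and 12, and calls in the eIF2 and eIF2B list from 6 to between 3 and 6. With library totals alone the share of calls that were higher moved from 50.8% to 39.9%, and the median log2 fold change of all genes from 0.00 to -0.09. Genes near no change turned sign: Adar to -0.08 with library totals, -0.02 without filtering, -0.05 and -0.06 in limma with pseudocounts of 1 and 0.1, -0.01 with the replicate block and -0.20 without hemin replicate 1. With 1 library left out, Adar ranged from -0.20 to 0.17, Dele1 from -0.14 to 0.07 (0.01 without vehicle replicate 1 or 2), Ppp1cb from -0.05 to 0.02 (0.01 without hemin replicate 3) and Mbtps2 from -0.11 (without hemin replicate 1) to 0.27.

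The replicate numbers were not taken to pair the samples. Deviations from the group means correlated at 0.0636, 0.0905 and 0.15 between same-numbered libraries, across genes, although each library correlated best with its own number. With the replicate block, 3728 genes were called (1892 higher, 1836 lower), Ppp1r15b stood at an edgeR adjusted p of 0.0486 and no call of the 6 genes changed. The limma fold changes are on the log2(FPKM + pseudocount) scale, which can understate changes of low genes. For Eif2ak1, with its zeros, they were larger, 0.37 and 1.28 with pseudocounts of 1 and 0.1 beside 0.05 in the main fit. With the replicate block its log2 fold change was 1.23.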
